A study of Homo sapiens with 12 samples.

Results

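Type II cadherins are calcium-dependent adhesion receptors of the cell surface whose combinations differ between neuron types. They bind like or related cadherins on the neighbouring cell through their outermost domain and are tied to the actin cytoskeleton by catenins. Trimethylation of lysine 27 on histone H3 (H3K27me3) is written by the Polycomb Repressive Complex PRC2, marks genes that are held silent, and often spreads over long domains. The 10 genes described here, CDH6, CDH7, CDH8, CDH9, CDH10, CDH11, CDH12, CDH18, CDH19 and CDH20, were chosen by name as type II cadherins that border gene deserts, out of 19970 protein-coding genes on chromosomes 1 to 22 and X. The rule that names them used no measured value.

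H3K27me3 ChIP-seq was done on human SH-SY5Y cells, a neuroblastoma line of sympathetic origin. WT cells express Tau, and the lines 231K and 232P are knocked out for the Tau gene MAPT (Tau-KO). The study's methods speak of CRISPR-Cas9 for a sister line that kept Tau and refer to earlier work for the Tau-KO lines. Whether each line is 1 clone is not given in the sources used here. Each of the 3 genotypes had 2 ChIP replicates, named 1 and 2, with 1 list of H3K27me3 peaks each, and no other treatment was labelled. The lists held 285826 and 222191 peaks in WT, 271413 and 212347 in 231K, and 147118 and 199677 in 232P, in the order of replicates 1 and 2. They covered 213.6 and 282.6 Mb, 196.6 and 290.2 Mb, and 70.3 and 211.7 Mb of the genome. Replicate 1 of 232P stood apart, with the smallest covered length, the fewest peaks and a median peak width of 335 bp. Every replicate 2 had wider peaks, with medians of 666 to 688 bp, than the replicates 1 of WT and 231K, with 441 and 440 bp. Relative to WT replicate 1, the depth recovered from the lists was 66.6% in WT replicate 2, 94.8% and 68.7% in 231K, and 68.1% and 56.9% in 232P. Read totals are not part of the lists. In the lists labelled 232P the names of single peaks start with 231P, which is the name of another Tau-KO line of the study. Groups were taken from the labels, and from the lists alone it cannot be told which of these lines they hold.

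The cell type was checked on promoters, defined throughout as the 1 kb on each side of any annotated start. Among genes that adrenergic neuroblastoma cells use, HAND2, ISL1, DBH, GATA3, TH and PHOX2A had no promoter peak in any list. They are only some of the genes chosen for this check, which is therefore incomplete. Of 5 genes used by every cell, 4 were free of promoter peaks, while HPRT1 on chromosome X had one in all 6 samples.

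All 10 cadherin genes lay beside a stretch of at least 500 kb without another protein-coding gene, with a median of 2026 kb for the longer of the gaps on either side. The same held for 6.14% of all protein-coding genes, whose median gap was 29.0 kb. CDH18, CDH12, CDH10, CDH9 and CDH6 follow each other on the short arm of chromosome 5. CDH8 and CDH11 lie on the long arm of chromosome 16, and CDH20, CDH7 and CDH19 on that of chromosome 18. The gene windows were poor in G and C, with a median GC content of 35.3% against 40.2% for the 3661 protein-coding genes of 100 kb or more.

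Peaks covered the genes of chromosome 5 and left those of chromosome 16 nearly bare. The measure is the percentage of the gene with 5 kb on each side that lies under peaks, called covered percent below. In WT it averaged 33.0% ± 18.7 (SD, n = 2) for CDH10, 24.1% ± 9.46 for CDH12, 22.9% ± 6.21 for CDH6, 15.9% ± 5.80 for CDH9 and 9.73% ± 8.00 for CDH19. It was 3.43% ± 1.44 for CDH18, 0.823% ± 0.789 for CDH7 and 0.577% ± 0.262 for CDH8, and 0 in both WT samples for CDH11 and CDH20. Neighbours in this order had overlapping WT ranges, except CDH18 over CDH7 and CDH8 over CDH11. Within samples CDH10 was above CDH12 in 6 of 6 samples, CDH6 above CDH9 in 6, CDH9 above CDH19 in 5 and CDH19 above CDH18 in 6. The order of CDH12 over CDH6 held in 2 samples and that of CDH7 over CDH8 in 1. Among all protein-coding genes, the WT mean of CDH10 stood at percentile 89.9, that of CDH12 at 87.8 and that of CDH18 at 79.7.

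**Figure D1:**
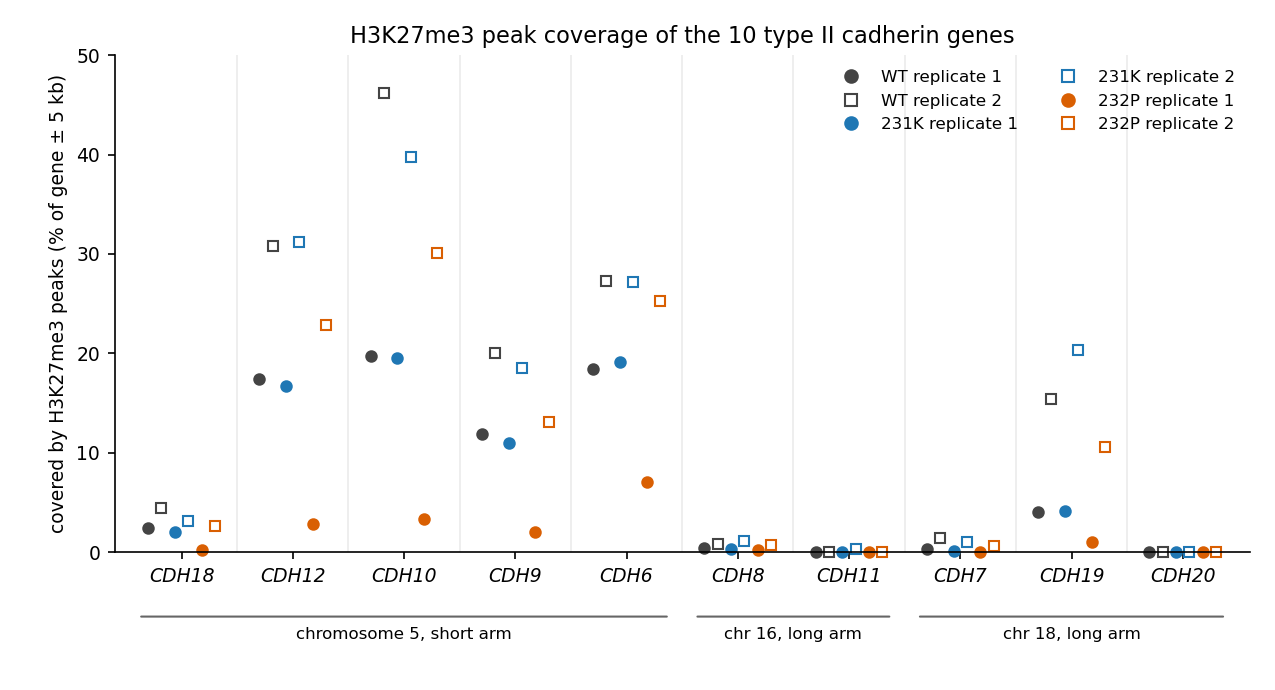
Covered percent (y axis, percent of the gene with 5 kb on each side under H3K27me3 peaks) of the 10 genes (x axis) in the 6 samples, with filled circles for replicate 1 and open squares for replicate 2. The genes of chromosome 5 other than CDH18 reach 18.6 to 46.2% in replicates 2 of WT and 231K, 232P replicate 1 is the lowest sample for each of them, and CDH11 and CDH20 lie at or near 0.

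The genes of chromosome 5 held between 94.8% and 98.0% of the covered length of all 10 in each sample. CDH12 alone held between 56.0% and 61.6%. Summed over the 10 genes, peaks covered 316 and 582 kb in WT, 302 and 564 kb in 231K, and 56.1 and 419 kb in 232P.

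Promoter sequence is shown for 5 of the genes, because they run from a start covered in every sample to one that no peak touched. Each line gives the 250 bases upstream of the RefSeq start (assembly GRCh38.p14), 5′ to 3′ on the strand of the gene, with CG dinucleotides, the sites of DNA methylation, in capitals. CG reads the same on both strands. RefSeq promoters matched 8 of the 10 genes, and CDH6 and CDH11 did not match. CDH10 lies at chr5:24644979-24645228 (minus strand), CDH12 at chr5:22853345-22853594 (minus), CDH7 at chr18:65750002-65750251 (plus), CDH8 at chr16:62036439-62036688 (minus) and CDH20 at chr18:61333180-61333429 (plus).
CDH10: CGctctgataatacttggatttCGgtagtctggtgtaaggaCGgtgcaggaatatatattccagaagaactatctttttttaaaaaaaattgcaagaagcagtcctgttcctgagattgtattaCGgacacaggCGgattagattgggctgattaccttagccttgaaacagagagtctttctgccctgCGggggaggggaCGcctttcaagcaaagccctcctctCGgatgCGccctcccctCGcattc
CDH12: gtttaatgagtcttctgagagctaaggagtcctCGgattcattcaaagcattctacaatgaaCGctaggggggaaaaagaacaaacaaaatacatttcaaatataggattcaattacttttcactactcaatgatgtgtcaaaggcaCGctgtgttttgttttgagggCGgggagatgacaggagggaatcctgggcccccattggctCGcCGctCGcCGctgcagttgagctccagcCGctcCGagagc
CDH7: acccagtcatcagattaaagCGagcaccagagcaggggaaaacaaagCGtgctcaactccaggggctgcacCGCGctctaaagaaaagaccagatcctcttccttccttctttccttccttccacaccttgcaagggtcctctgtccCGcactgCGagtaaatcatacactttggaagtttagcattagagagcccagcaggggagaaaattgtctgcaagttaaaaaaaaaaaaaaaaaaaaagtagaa
CDH8: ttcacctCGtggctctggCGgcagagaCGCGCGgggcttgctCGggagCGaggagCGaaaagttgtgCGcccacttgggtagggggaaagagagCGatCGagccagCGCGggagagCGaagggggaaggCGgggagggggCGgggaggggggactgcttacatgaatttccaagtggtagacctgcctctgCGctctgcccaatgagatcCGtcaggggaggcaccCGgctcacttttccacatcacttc
CDH20: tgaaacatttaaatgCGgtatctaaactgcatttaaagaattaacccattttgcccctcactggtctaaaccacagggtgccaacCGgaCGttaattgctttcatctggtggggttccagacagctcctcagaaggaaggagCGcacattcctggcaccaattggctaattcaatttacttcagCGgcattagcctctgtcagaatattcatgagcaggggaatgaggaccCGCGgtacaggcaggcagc

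The stretch of CDH10 holds 10 CG and lay wholly, all 250 bases, under peaks in all 6 samples. That of CDH12 also holds 10 CG and was covered over 250 and 62 bases in WT, 0 and 76 in 231K, and 250 and 0 in 232P. That of CDH7, with 6 CG, was covered over 0 and 250 bases in WT, 198 and 0 in 231K, and 0 and 97 in 232P. CDH8 has the densest stretch, with 19 CG and 64.0% GC, and no peak reached it, since the mark at its start ended upstream of it and the other peaks lay further inside the gene. CDH20 has 7 CG and no peak. Among the others, CDH9 has 7 CG, and CDH18 and CDH19 have 4 each. Across 15314 RefSeq promoters of protein-coding genes the median was 17 CG, and 69.3% held 10 or more. A peak overlapped the stretch in all 6 samples in 0.189% of promoters with 10 or more CG and in 6.46% of those with fewer. Whether base composition bears on where peaks were called was not tested.

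Promoters split the genes into 3 sets. CDH6, CDH8, CDH9, CDH10 and CDH12 had a promoter peak in all 6 samples, 5 of 10 genes against 11.4% of all protein-coding genes. Where peaks had to cover 50% of a window, CDH6 and CDH12 remained (2 genes, against 3.0%), and with peaks of −log10 q of at least 5 CDH6 alone (1 gene, against 2.78%). CDH7, CDH18 and CDH19 had one in 4 samples, both replicates of 231K and replicate 2 of WT and 232P. CDH11 had one in 1 sample, 231K replicate 2, and CDH20 in none. Counted per genotype, 5 genes had a promoter peak in both WT samples, 8 in both 231K samples and 5 in both 232P samples. The 3 genes that made the difference had none in WT replicate 1, and without that sample the WT count was 8. Without 232P replicate 1 the 232P count was 8 as well. The matching share of all protein-coding genes is not given for single genotypes, so these counts are no result about the 10 genes. At the 5′ end of the gene record alone, CDH18 had no promoter peak in any sample, CDH19 had one in 1 sample, and CDH9 had one in 3 samples, both of WT and 232P replicate 1. The other promoter peaks of these 3 genes lay at other annotated starts.

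Promoters and gene bodies were covered to different extents. In CDH12, 51.3 and 70.6% of the promoter length lay under peaks in WT, 46.2 and 75.9% in 231K, and 32.2 and 55.4% in 232P. The rest of the gene was covered by 16.8 and 30.2%, 16.1 and 30.4%, and 2.54 and 22.5%. The promoter value of CDH12 exceeded the body value in each sample. CDH6 had promoter values between 20.1 and 23.9% in all 6 samples, the narrowest range among the genes of chromosome 5, while its body ranged from 6.02 to 26.2%. For CDH10 the promoter value exceeded the body value in 6 of 6 samples and for CDH9 in 5, not in 231K replicate 2 (17.8 against 19.1%). For CDH6 it did so in 3, the samples of replicate 1, while in those of replicate 2 the promoter values of 23.7, 23.3 and 21.9% in WT, 231K and 232P lay below the body values of 26.2, 26.2 and 24.1%. In 232P replicate 1, the sample with the lowest body values of these genes, the promoters of CDH10, CDH9 and CDH6 were covered by 6.14, 11.2 and 20.1%, with bodies at 3.25, 1.60 and 6.02%, while CDH18 had no promoter coverage and 0.193% of its body under peaks. For CDH10 the promoter value in WT replicate 1 was 45.0% and the body value 17.7%.

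**Figure D2:**
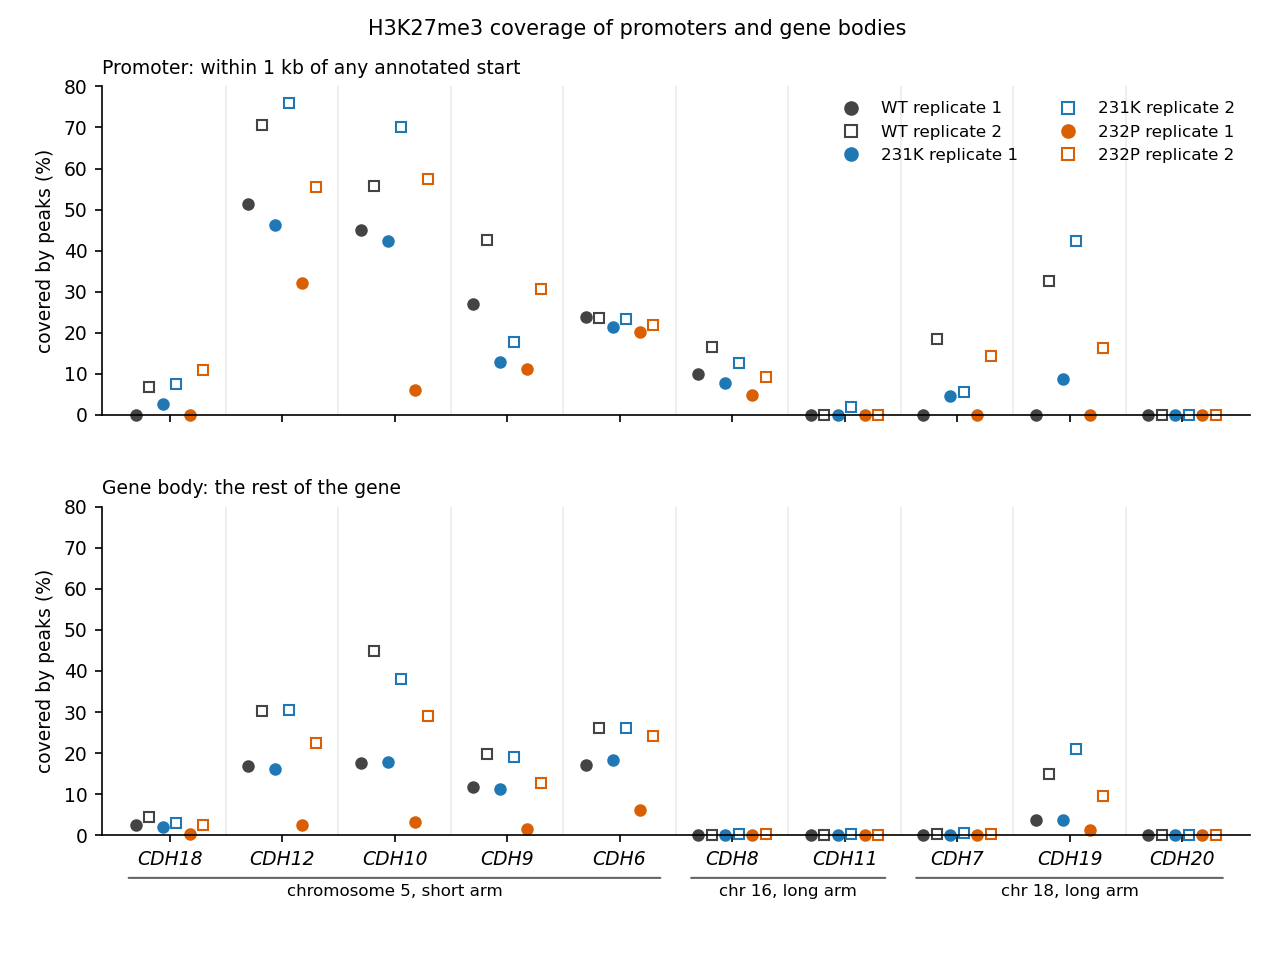
Percentage of the promoter length (upper panel, 1 kb on each side of any annotated start) and of the rest of the gene (lower panel) under H3K27me3 peaks, for the 10 genes (x axis) in the 6 samples. CDH12 promoters run from 32.2 to 75.9% and CDH6 promoters stay between 20.1 and 23.9%, while the bodies of CDH8, CDH11, CDH7 and CDH20 are at or near 0.

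CDH6, or K-cadherin, is known from kidney and neural crest and lies at chr5:31193686-31329146 on the plus strand (hg38, 12 exons). It was marked at one end only. Upstream of its start lie 4073 kb without a protein-coding gene, and of the nearest 500 kb of these, 37.1 and 55.0% were under peaks in WT, 39.9 and 59.8% in 231K, and 9.44 and 45.0% in 232P. The first 50 kb of the gene were covered by 45.8 and 68.4% in WT, 48.2 and 69.1% in 231K, and 16.6 and 63.5% in 232P. The remaining 85.5 kb held no peak in 5 samples and 0.493% in WT replicate 2, and none lay in the 71.3 kb between the gene and the next one downstream. In those 5 samples the last peak in the gene ended 36.5 to 38.5 kb from the start, inside intron 1. The edge of the marked stretch was at nearly the same place in all 3 genotypes, outside the patch in WT replicate 2 that reached 74.3 kb.

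The strongest peak of CDH6 was taken in each list, and its place differed between samples. Its −log10 q-value, a measure of evidence that grows with depth, was 11.2 and 14.1 in WT, 9.43 and 15.3 in 231K, and 6.93 and 7.43 in 232P. The summits lay 15.8 and 32.1 kb inside the gene in WT. In 231K they lay 1.655 kb inside and 0.535 kb upstream, and in 232P 0.577 kb upstream and 2.91 kb inside. They rose to 19, 21, 17, 22, 13 and 14 reads over local backgrounds of 1.52, 1.38, 1.52, 1.46, 1.01 and 1.27 reads, in the order WT, 231K and 232P. CDH6 had the strongest peak of the 10 genes in both samples of WT and of 231K. In 232P replicate 1 that place went to CDH10, with a −log10 q-value of 9.40, and in replicate 2 CDH6 and CDH12 were level. A mark is a region of peaks that overlap across samples, merged over the 6 lists, so its width is not that of a peak. The widest mark of all, 28374 bp at chr5:31203862-31232235, lay in intron 1 of CDH6. Every sample had a peak in it, with fold enrichment between 6.18 and 9.24. The widest single peak of CDH6 had 8780 and 12436 bp in WT, 3893 and 13647 bp in 231K, and 1044 and 13402 bp in 232P.

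**Figure D3:**
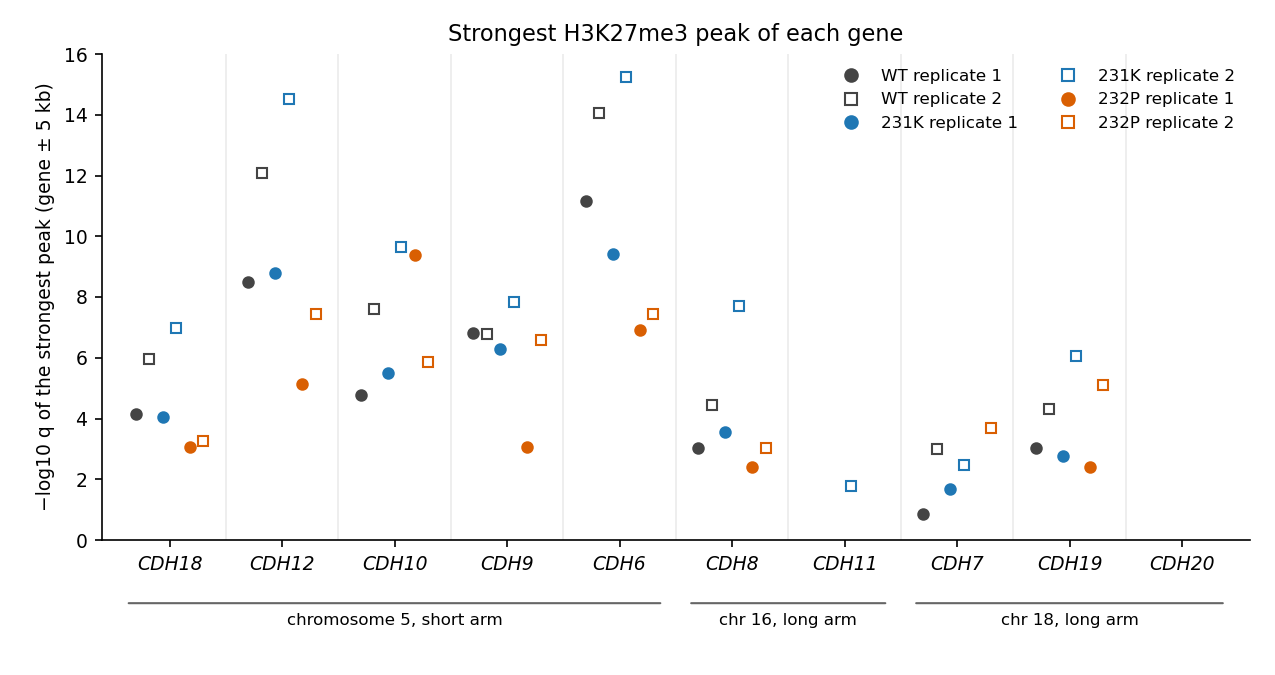
The −log10 q-value of the strongest H3K27me3 peak (y axis) within 5 kb of each of the 10 genes (x axis) in the 6 samples, with no point where a list held no peak. CDH6 reaches 15.3 and CDH12 14.5 in 231K replicate 2, and CDH11 has a single point at 1.77.

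CDH12, the brain cadherin once called N-cadherin 2, spans 1103 kb at chr5:21750673-22853344 on the minus strand, with 15 exons. It held 407 and 398 peaks in WT, 382 and 394 in 231K, and 110 and 336 in 232P. They covered 17.4 and 30.8% of it in WT, 16.7 and 31.2% in 231K, and 2.82 and 22.8% in 232P. The genotypes overlapped, and 232P replicate 1 lay far below the other 5 samples. Coverage was spread along the whole gene, and the 500 kb upstream were covered by 21.3 and 33.6% in WT, close to the gene itself. Its strongest mark present in every sample, by the lowest of the 6 −log10 q-values, lay in intron 6 at chr5:21902978-21911560, with fold enrichment between 4.76 and 6.62. The mark over its start, chr5:22850347-22857704, had fold enrichment between 4.37 and 6.25.

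CDH10, expressed mainly in brain, lies at chr5:24487100-24644978 on the minus strand. Peaks covered 19.8 and 46.2% of it in WT, 19.5 and 39.8% in 231K, and 3.32 and 30.1% in 232P, so that replicates of 1 genotype differed more than WT and 231K did. The mark over its start, chr5:24640771-24646530, was present in all 6 samples, with fold enrichment between 3.86 and 6.30. The strongest CDH10 mark, chr5:24607630-24619800 in intron 1, had fold enrichments of 4.76 and 5.32 in WT, 4.51 and 7.09 in 231K, and 8.15 and 4.86 in 232P, so the genotypes overlapped. Coverage outside the gene was 13.0 and 20.5% in the 500 kb upstream and 12.4 and 21.98% in the 500 kb downstream in WT.

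CDH9, which takes part in forming specific synapses, lies at chr5:26880597-27121150 on the minus strand. Its covered percent was 11.8 and 20.0 in WT, 11.004 and 18.6 in 231K, and 2.00 and 13.1 in 232P. The values of 231K lay just below those of WT of the same replicate number, and the pairs overlapped. The RefSeq start of CDH9 lies 82564 bp inside the GENCODE gene. Of the 250 bases before it, all were under peaks in both WT samples, 0 and 81 in 231K, and 0 and 183 in 232P. The share of all promoters that separate in this way is not given, so this is a description of 1 short stretch. Within 1 kb of the GENCODE 5′ end, 221 and 251 bp were covered in WT, 0 and 0 in 231K, and 438 and 0 in 232P.

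CDH18, a cadherin of the central nervous system, is the longest of the genes at 1105 kb (chr5:19471296-20575873, minus strand) and the least covered on chromosome 5. Its covered percent was 2.41 and 4.45 in WT, 2.00 and 3.11 in 231K, and 0.189 and 2.62 in 232P. Only 1 of its 266 marks was found in all 6 samples, at chr5:20301864-20305435. Coverage rose past its 3′ end, where the 500 kb downstream were covered by 16.3 and 29.0% in WT, 16.9 and 32.6% in 231K, and 2.34 and 21.7% in 232P.

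**Figure D4:**
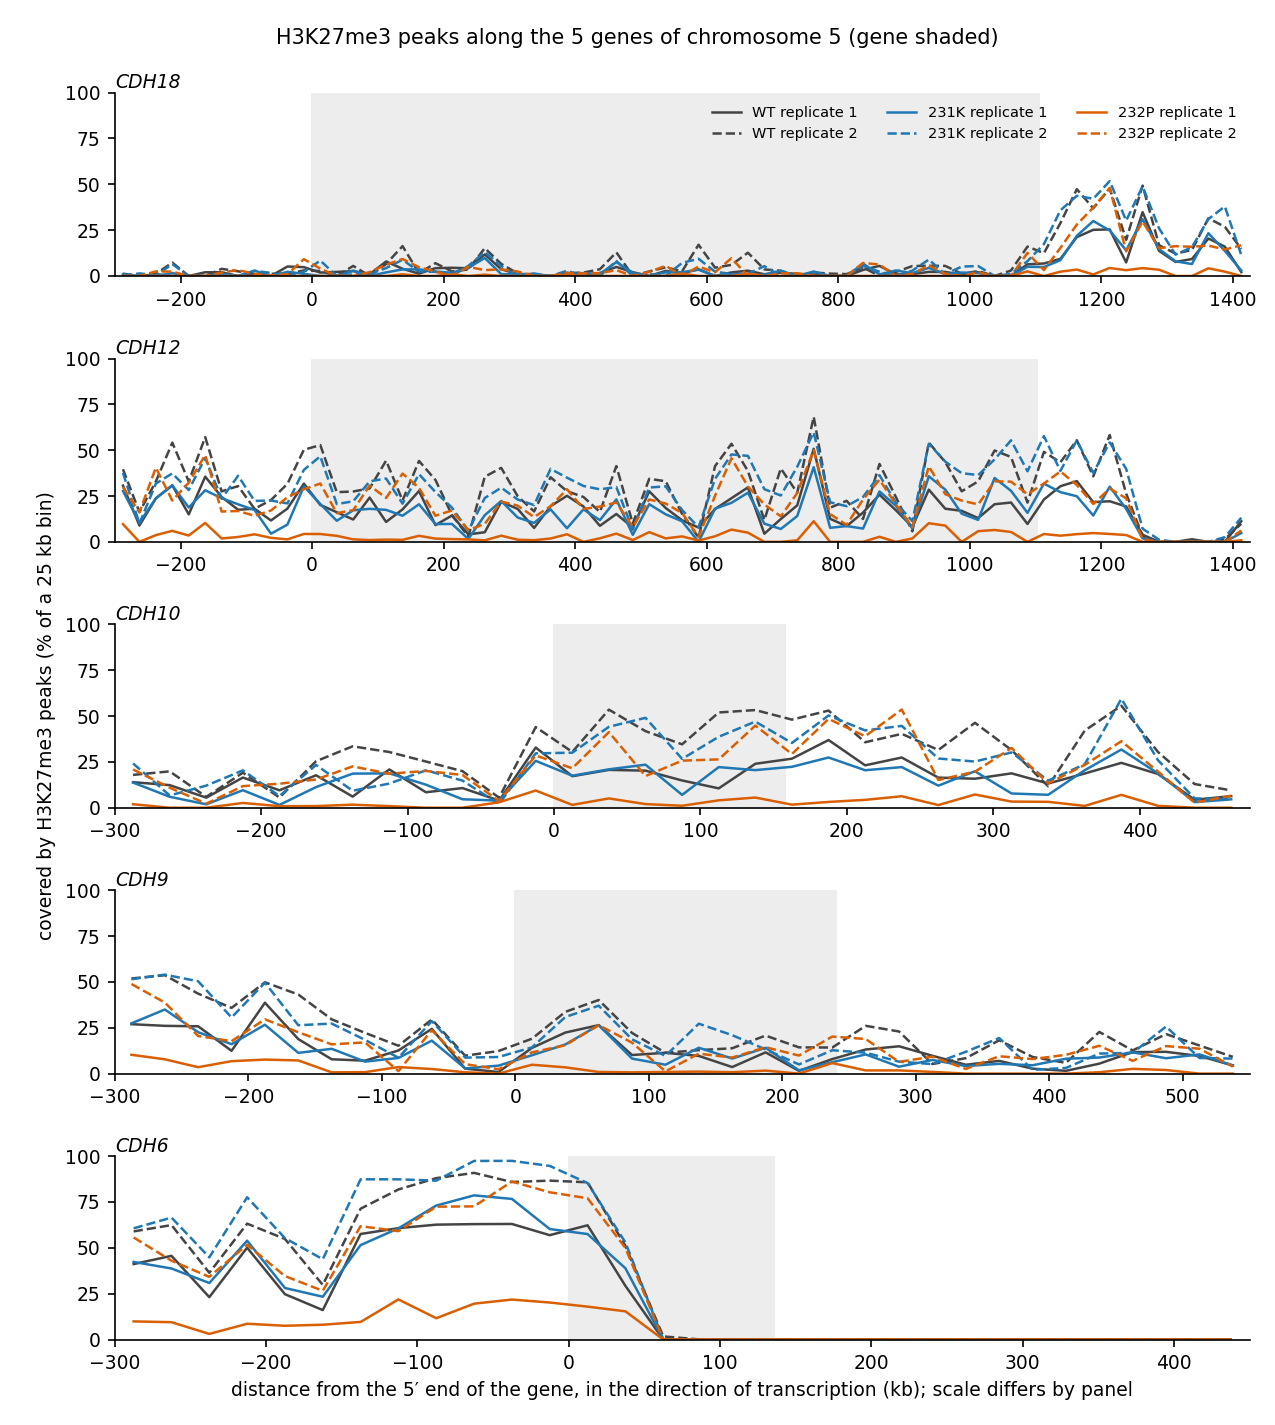
Percentage of each 25 kb bin under H3K27me3 peaks (y axis) along the 5 genes of chromosome 5, by distance from the 5′ end in the direction of transcription (x axis, kb), with the gene shaded, solid lines for replicate 1 and dashed lines for replicate 2. In CDH6 coverage ends within the first 50 kb of the gene in each genotype, apart from 1.68% of a bin in WT replicate 2, in CDH18 it rises past the 3′ end, and 232P replicate 1 is low throughout.

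On chromosome 16, peaks lay around the start of CDH8 in every sample and in CDH11 in 1 sample. CDH8, a cadherin of cortical and thalamic neurons, lies at chr16:61647242-62037035 on the minus strand with 2913 and 2907 kb of gene-free sequence on its sides. It held 2 to 4 peaks per sample, from 3.45 kb upstream to 4.40 kb downstream of its 5′ end, and none further into the gene. Of the 1 kb on each side of its start, 998 and 1085 bp were covered in WT, 947 and 1175 bp in 231K, and 606 and 1136 bp in 232P. The ranges of the 3 genotypes overlapped. Its start mark, chr16:62036778-62040485, had fold enrichment between 3.37 and 6.09.

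CDH11, or OB-cadherin, is typical of mesenchymal and bone-forming cells and lies at chr16:64943753-65126112 (minus strand). No peak lay in it, in its 5 kb flanks or in the 500 kb on either side in either WT sample or in either 232P sample. Replicate 2 of 231K had 2 peaks, the stronger with a fold enrichment of 2.71 and 7 reads at its summit, and replicate 1 had none. With 1 sample of 6, the difference was not detectable above the spread between replicates.

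The genes of chromosome 18 differed among themselves. CDH19, a marker of Schwann cell precursors, lies at chr18:66501083-66604138 (minus strand) and had a covered percent of 4.08 and 15.4 in WT, 4.11 and 20.3 in 231K, and 1.04 and 10.6 in 232P. CDH7, known from neural crest, lies at chr18:65750252-65890337 (plus strand) and had 0.265 and 1.38 in WT, 0.145 and 1.00 in 231K, and 0 and 0.652 in 232P. In both genes each replicate 2 lay above the replicate 1 of its genotype. The gene-free stretch of 611 kb between CDH7 and CDH19 was covered more than CDH7 itself, by 3.59 and 8.28% of the 500 kb next to CDH7 in WT. CDH20, known from the neural tube, lies at chr18:61333430-61555779 (plus strand) and had no peak in any list, also none within 500 kb upstream or in the 252 kb before the next gene downstream.

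The comparison of the Tau-KO lines with WT asks whether the loss of Tau changes the mark at these genes. Line 231K was close to WT. Its covered length summed over the 10 genes was 0.964 of WT, with ratios of 0.954 and 0.970 within replicates 1 and 2, against 0.995 over all protein-coding genes and 0.981 over chromosomes 1 to 22 and X. Line 232P had 0.529 of WT, with 0.177 and 0.720 within replicates, against 0.584 over all protein-coding genes (0.362 and 0.755) and 0.573 over genes of 100 kb or more. Lower coverage in 232P was thus seen over the genome as well, and most so in its replicate 1. After scaling to the covered length of each list, the ratio of 232P was 0.784 over the 10 genes, 1.05 over all protein-coding genes and 0.988 over genes of 100 kb or more. Without 232P replicate 1 the ratio before scaling was 0.933, and without 232P replicate 2 it was 0.125. Without a WT sample it was 0.408 or 0.751, and leaving out 1 sample moved the ratio of 231K to between 0.672 and 1.37.

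**Figure D5:**
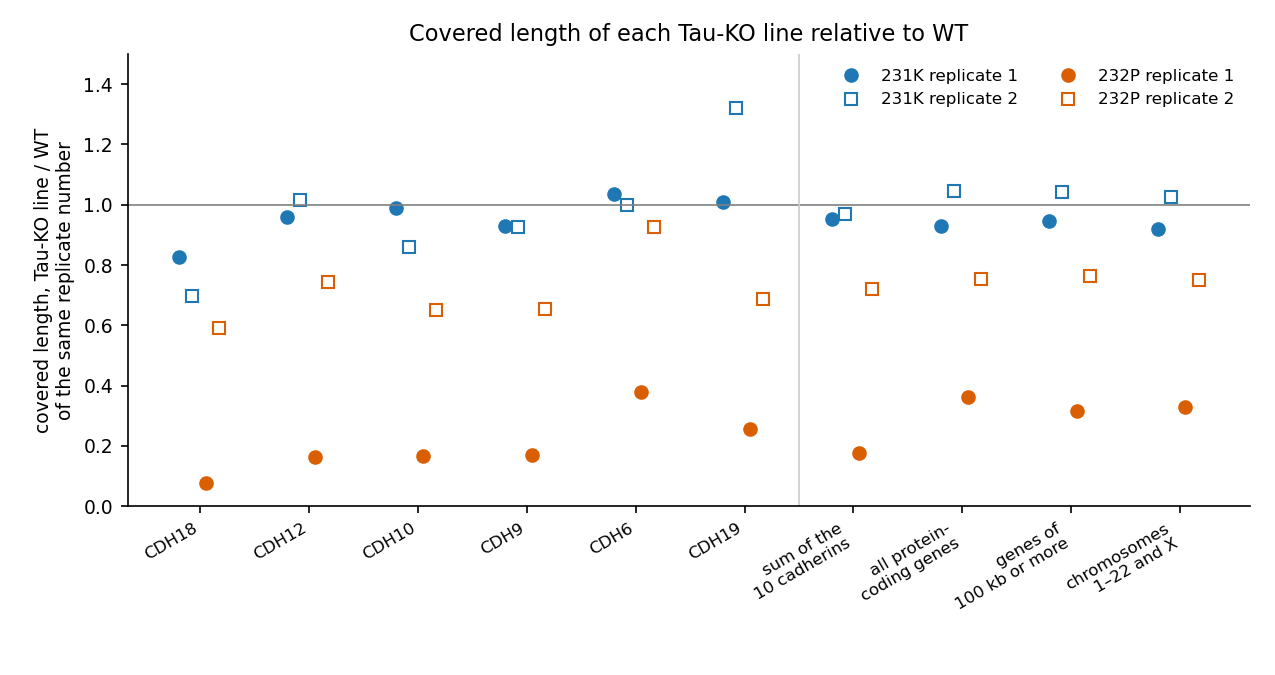
Covered length of each Tau-KO line divided by that of WT of the same replicate number (y axis) for 6 genes, for the sum of the 10 genes and for 3 wider sets (x axis), with a line at 1. Both 231K points of the 10-gene sum lie at 0.954 and 0.970, and those of 232P at 0.177 and 0.720, next to 0.329 and 0.749 over chromosomes 1 to 22 and X.

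By gene, the 232P to WT ratio within replicates 1 and 2 was 0.380 and 0.927 in CDH6, the highest pair of the 6 genes plotted. It was 0.0784 and 0.590 in CDH18, the lowest pair. CDH12, CDH10 and CDH9 had 0.162 to 0.169 in replicate 1 and 0.651 to 0.742 in replicate 2. For 231K, CDH18 had 0.827 and 0.698 and CDH19 had 1.01 and 1.32. Replicates differed within genotypes too. Replicate 2 covered 1.84 times the length of replicate 1 over the 10 genes in WT, 1.87 times in 231K and 7.47 times in 232P, against 1.32, 1.48 and 3.01 times over the genome.

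Covered percent was tested with limma on log2(covered percent + 1) over the 4630 protein-coding genes with a mean of at least 1%. CDH6, CDH9, CDH10, CDH12, CDH18 and CDH19 passed this filter, and CDH7, CDH8, CDH11 and CDH20 did not. No gene was called at an adjusted p under 0.05 (Benjamini-Hochberg), which is 0% of those tested, for 231K, for 232P or for the mean of both lines against WT. At an unadjusted p under 0.05, 42 genes were lower and 7 higher in 231K, 454 lower and 0 higher in 232P, and 136 lower and 1 higher in the mean of both. None of the cadherins was among them. In 231K their log2 fold changes lay between −0.30 (CDH18) and 0.19 (CDH19), with limma adjusted p = 1 for each. In 232P they were −1.43 ± 1.06 (SE) for CDH10, −1.34 ± 1.00 for CDH12, −1.34 ± 0.90 for CDH9, −1.05 ± 0.77 for CDH18, −0.91 ± 1.11 for CDH19 and −0.69 ± 0.83 for CDH6. The limma adjusted p in 232P lay between 0.378 and 0.534. All tested genes had a median log2 fold change of −0.93 in 232P and −0.04 in 231K, so the values of the cadherins in 232P are to be read against that shift.

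The fit above did not use the replicate numbers. Setting the samples of the same replicate number against each other (replicate block) called 16 genes lower in 232P, or 0.346%, and none of the 10 cadherins. Their limma adjusted p then lay between 0.154 and 0.365. The SE in 232P was smaller with the block, from 0.54 in CDH19 to 0.67 in CDH12. A single library decided the calls in 232P. Without 232P replicate 2, limma called 2826 genes lower, or 60.9% of those tested, among them CDH9, CDH10, CDH12 and CDH19, with adjusted p between 0.000348 and 0.0135. CDH10 was then also called in the mean of both lines, with 33.5% of all genes tested. Without 232P replicate 1, 57 genes were called lower and none was a cadherin of the 10. After scaling to the covered length of each list, the log2 fold change of CDH6 in 232P turned to 0.25, while the other 5 remained below 0.

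None of the 6 genes had both 231K samples, or both 232P samples, below both WT samples, against 12.7% and 53.9% of all genes tested. Within both replicate numbers, CDH18, CDH10 and CDH9 were lower in 231K than in WT, against 28.5% of all genes, and CDH19 was higher, against 20.3%. In 232P all 6 were lower within both replicate numbers, as were 83.5% of all genes tested. An exact permutation test of 2 against 2 samples cannot give a p below 0.333, and one of 4 against 2 none below 0.0667, so no further p is given for single genes.

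Merging the peaks of the 6 lists gave 1129 marks at the 10 genes, 581 of them in CDH12. In all 6 samples 60 marks were present, or 5.31% against 12.1% of the marks of the genome, 39 of them in CDH12, 8 in CDH10, 6 in CDH9 and 3 in CDH6, and 9 of the 60 lay at promoters. In 1 sample alone 586 marks were found. The matching share of the genome is not given, so this count is no result about the 10 genes. The same holds for the numbers of marks at promoters. Only the WT samples, and both of them, shared 14 marks (1.24%, against 2.25% of all marks of the genome), 8 in CDH12, 3 in CDH18, 2 in CDH9 and 1 in CDH10, and none of the 14 lay at a promoter. A single mark was found in all 4 Tau-KO samples and in neither WT sample, at chr5:22411909-22413669 in intron 2 of CDH12. Over the genome such marks made up 0.0618%. Of the 245 marks present in both WT samples, 25 were missing from both 231K samples, or 10.2% against 10.7% over the genome, and 57 from both 232P samples, or 23.3% against 22.9%. Of the 394 marks in neither WT sample, 26 were found in both 231K samples, or 6.6% against 7.75% over the genome, and 5 in both 232P samples, or 1.27% against 0.977%. The shares lost and gained in each line were near those of the genome and are no result about the 10 genes.

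Other cadherins and the catenins that bind them also differed in coverage. Of the 3 type II cadherins outside the 10, CDH5 and CDH24 had no peak in any sample, and CDH22 had a promoter peak in all 6. Of 5 type I cadherins, CDH1, CDH2 and CDH3 had none, although CDH2 (N-cadherin) also borders a gene-free stretch of 2811 kb. CDH4 had a covered percent of at most 0.228% in any sample. CDH15, the cadherin of muscle, was covered by 2.66 and 0.812% in WT, 0.599 and 1.62% in 231K, and 2.81 and 2.13% in 232P. CDH13, which is held in the membrane by a lipid anchor, was covered by 54.7 and 57.9% in WT, 52.2 and 60.3% in 231K, and 17.1 and 40.8% in 232P, more than any of the 10. Of 8 catenins, 4 had no peak (CTNNB1, CTNNA1, JUP and ARVCF), while CTNND2, or delta-catenin of neurons, reached 43.7 and 56.5% in WT and CTNNA3 13.0 and 23.4%. Of these comparison genes 5 passed the filter on low coverage, and none passed the limma test in 232P. The log2 fold change in 232P was −1.14 ± 0.94 for CTNNA3, −1.07 ± 0.70 for CTNND2, −1.06 ± 0.54 for CDH13 and −0.52 ± 0.63 for CDH22, while that of CDH15 was 0.42 ± 0.71. Their limma adjusted p lay between 0.378 and 0.638.

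The genes whose covered percent across the 6 samples was nearest to the median of the 10, by Euclidean distance on the log2 scale, were NDST4, LRFN5, CA10, CNKSR2 and PTPRD, with distances of 0.49 to 0.62. NDST4, for example, had 3.07 and 7.15% in WT, 3.54 and 10.7% in 231K, and 0.499 and 5.77% in 232P. The choice by nearest profile fixed this likeness, so it is a description.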

How the data were processed

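Reads of the H3K27me3 ChIP libraries were trimmed with trimmomatic and mapped to hg38 with BWA by the authors, and peaks were called for every sample by MACS, version 2. The tool deepTools is also named in the submitters' processing notes. The methods name the broadPeak setting, whereas the files are in narrowPeak format with 10 columns, and each holds more peaks than the methods state. The q-value threshold and the control library are not given in the sources used here. The deposited fold enrichment is a ratio of reads at the summit to local background after adding 1 to both. Deposited −log10 p-values and −log10 q-values belong to the summit, and the deposited score equals the −log10 q-value multiplied by 10. None of these is normalized between samples. The 6 input libraries were not analysed here.

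Genes and starts were taken from GENCODE release 44. Covered percent was computed from merged peaks over the gene with 5 kb on each side. Tests used limma 3.58.1 (lmFit, eBayes with trend) in R 4.3.3, with all 6 samples in 1 fit, on log2(covered percent + 1) of genes with a mean of at least 1%. The methods of the study applied limma to read counts, which the lists do not hold. Summit heights were recovered from fold enrichment and p-value with the Poisson distribution of MACS, and 100% of peaks gave a whole number within 0.001 of the −log10 p-value. The lowest background divided by fragment length gave relative depth. Since read numbers are not in the lists, no counting interval is given, and the absence of a peak says only that the threshold was not reached in that library. The scripts were tested on simulated data.

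Replicates are separate samples by their labels. Replicate numbers come from the letters in the sample titles. The differences between replicates 2 and 1 correlated between genotypes with r = 0.266, 0.348 and 0.194 across 4630 genes, which are not independent. The labels do not say whether samples of equal number belong together. The correlation cannot decide it, since every replicate 2 also had wider peaks than the replicates 1. The main fit left the numbers out, and the replicate block used them as pairs. Beside all 10 cadherins, the genes named were comparison lists of cadherins and catenins and the 5 genes with the nearest profile, by rule. Some genes of the list used to check the cell type are not reported here. The members and lists were chosen with earlier results of these data known. Alternatives were the replicate block, other pseudocounts (0.1 and 5), filters, windows and peak thresholds, equal numbers of peaks, thinning to the shallowest library, scaling to the covered length, and leaving out each sample. Their effect is given in the closing section.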

Additional observations from a re-analysis of the deposited data

How the results depend on the processing

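The count of genes called by limma moved from 0 to 16 lower genes in 232P with the replicate block. It stayed at 0 in both directions for 231K and the mean of both lines with the block, and for all 3 comparisons under pseudocounts of 0.1 and 5, without the filter on low values (genes with no peak in any list left out), with stricter peaks, equal numbers of peaks, thinning, 0 kb flanks and scaling, the last also with the block (a fit added after seeing the data). Leaving out 1 sample in turn, lower genes ranged from 0 to 11 in 231K, from 0 to 2826 in 232P and from 0 to 1557 in the mean of both, and higher genes in 232P from 0 to 2. All extremes came without 232P replicate 2, where the lone sample is assumed to vary like the other groups. The block changed no call among the 10 cadherins.

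The log2 fold changes of 231K were near 0 and changed sign easily. With peaks of −log10 q of at least 5 they were −0.11 in CDH6, 0.78 in CDH10 and 0.52 in CDH12. With thinning they were −0.021, 0.11 and 0.062 in the same genes. With equal numbers of peaks they were 0.057 in CDH10, 0.028 in CDH12 and −0.032 in CDH19. CDH12 turned to 0.023 with a q-value under 0.05 and to 0.020 with scaling, with or without the block. In 232P, CDH6 turned to 0.25 with scaling, with or without the block. The causes were not tested. Leaving out 1 sample in turn, 231K values ranged from −0.25 to 0.29 in CDH6, −0.46 to 0.26 in CDH9, −0.71 to 0.48 in CDH10, −0.45 to 0.42 in CDH12, −0.64 to 0.039 in CDH18 and −0.84 to 1.23 in CDH19. In 232P they ranged from −1.55 to 0.16 in CDH6, −2.45 to −0.22 in CDH9, −2.86 to −0.01 in CDH10, −2.66 to −0.02 in CDH12, −1.86 to −0.25 in CDH18 and −2.16 to 0.34 in CDH19.

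The number of genes with a promoter peak in both WT samples was 5, and became 8 with a window of 2.5 kb, 3 where peaks had to cover 50% of a window and 1 with −log10 q of at least 5. In 231K it was 8, and became 3, 5 and 3 with 50% coverage, with the 5′ end of the gene record alone and with −log10 q of at least 5, and 5 with equal numbers of peaks. In 232P it was 5, and became 2 with 50% coverage and 2 with −log10 q of at least 5. With thinning CDH19 dropped out of the 231K count, and with the 5′ end alone CDH9 dropped out of the 232P count. No shares of all protein-coding genes are given beside these counts per genotype. Without 1 sample the counts ranged from 5 to 8 in WT, 8 to 9 in 231K and 5 to 8 in 232P. The ratio of summed covered length to WT ranged from 0.962 to 1.30 in 231K, the highest with −log10 q of at least 5, and from 0.461 to 0.784 in 232P, the highest with scaling. These shifts are below the SD of the 2 samples of a line, each divided by the WT mean, which was 0.413 in 231K and 0.571 in 232P. That SD holds the gap between replicates, which WT shared (replicate 2 over 1 was 1.84 in WT and 1.87 in 231K). Staying below it therefore does not show that a ratio is stable. The highest value of 231K lies outside its ratios within replicates, 0.954 and 0.970, and the scaled value of 232P lies above its ratios of 0.177 and 0.720. A peak absent from a list may lie below the threshold of that list. Covered length did not follow the recovered depth.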
